A study of Mus musculus with 8 samples.

Results

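The receptors described here are the odorant receptor (OR) genes numbered Olfr90 to Olfr136, a block of class II receptor genes on mouse chromosome 17 that lies within the extended major histocompatibility complex (MHC). A gene was included when the array held a transcript cluster (the unit of probes read as 1 gene) whose platform annotation named that gene alone. This gave 38 receptors out of 21789 clusters with 1 gene symbol. Of the remaining numbers in the span, 6 had only clusters shared with other receptors and 3 are pseudogenes. Each of the 38 had a single cluster of its own. Each of 8 arrays read the olfactory mucosa of 1 mouse at age P1 (postnatal day 1), all of a mixed 129 x C57BL/6J background. The 4 knockouts had the genotype OmpCre:Emx2(fl/fl). Among the 4 control littermates, the genotype OmpCre:Emx2(fl/+) was that of controls 1 to 3, while control 4 lacked Cre and had the genotype Emx2(fl/fl). Both copies of Emx2 are thus floxed in the knockouts and also in control 4, and Cre, which is made from the Omp locus and acts in mature olfactory sensory neurons (OSNs), was present in the knockouts and in controls 1 to 3. Mice of both sexes and of more than 1 litter were used.

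ORs are seven-transmembrane, G protein-coupled receptors, and each mature OSN expresses 1 allele of 1 receptor gene out of the whole repertoire. The level of a receptor's mRNA in the mucosa therefore follows both the number of neurons that chose it and the mRNA per neuron, and in bulk tissue fewer such cells and less RNA per cell cannot be told apart. Choice takes place from heterochromatic gene clusters and depends on distal enhancers and on homeodomain and EBF transcription factors. Emx2 and Lhx2 are homeodomain proteins of these neurons. The receptors beside the MHC have drawn interest because the MHC also shapes individual body odor, and the block is a patchwork of several receptor families among MHC class I genes. The comparison asked which of these receptor mRNAs depend on Emx2 in mature OSNs.

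The label of the block was checked against the gene annotation. All 38 genes were annotated to chromosome 17 in RefSeq, from Olfr90 at one end, next to Gabbr1, to Olfr136 at the other. The interval between them held 49 protein-coding genes, of which 46 were Olfr genes and 3 were not. Those 3 were Ubd, which encodes a ubiquitin-like protein, and the MHC class I genes H2-M3 and H2-M2. It also held 12 receptor pseudogenes. For 37 of the 38 receptors the gene table gave a receptor family with a class II number, and for Olfr111 it gave no family. Families are written here as MOR followed by a number.

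The sequences at the starts of these genes are shown because Emx2 encodes a DNA-binding protein. RefSeq (GRCm38.p6) start windows, which run from 250 bases before to 50 bases after the annotated start, were found for 31 of the 38 receptors. In 19 of the 31 (61.3%) the annotated start was the ATG of the protein, so the last 50 bases of those windows are coding sequence, and the window need not hold the true transcription start. Of the other class II receptors' windows, 73.1% began in this way. The windows of the pair of receptors with the smallest p values are given first, with the first base of the gene model as a capital. Olfr130 lies at chr17:38066923-38067222 on the + strand and Olfr115 at chr17:37610730-37611029 on the - strand.
Olfr130: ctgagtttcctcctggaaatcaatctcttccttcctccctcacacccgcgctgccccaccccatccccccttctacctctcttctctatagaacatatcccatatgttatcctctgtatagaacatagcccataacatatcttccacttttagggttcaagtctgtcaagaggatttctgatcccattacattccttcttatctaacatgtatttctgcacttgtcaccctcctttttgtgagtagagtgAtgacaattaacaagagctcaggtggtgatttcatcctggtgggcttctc
Olfr115: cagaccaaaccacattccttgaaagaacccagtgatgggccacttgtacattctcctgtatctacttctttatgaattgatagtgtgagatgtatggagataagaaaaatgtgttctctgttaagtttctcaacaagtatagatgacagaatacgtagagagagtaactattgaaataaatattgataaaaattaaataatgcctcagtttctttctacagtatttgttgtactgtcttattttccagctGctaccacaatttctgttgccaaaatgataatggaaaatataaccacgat

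A pair of motifs was searched in the windows. TAATTA is a core that many homeodomain proteins bind, and CCCNNGGG is the palindromic core of the site of EBF (Olf1) proteins. Each reads the same on both strands, and they do not overlap each other. Neither was present in the windows of Olfr130 or Olfr115. TAATTA was present in 4 of the 31 windows (12.9%), against 19.6% of windows of the other class II receptors and 5.29% of all windows. These 4 are shown with the motif in capitals, at chr17:37795354-37795383 (+) for Olfr123, chr17:37804935-37804964 (+) for Olfr124, chr17:38131411-38131440 (-) for Olfr132 and chr17:38174881-38174910 (+) for Olfr134.
Olfr123: tgtcagcattttTAATTAttttatagacaa
Olfr124: ttaaccagccatTAATTAagcaacattccc
Olfr132: gagttaTAATTAgatataaagcatcagaga
Olfr134: aatatttttaccTAATTActgatagtaaaa

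CCCNNGGG was likewise present in 4 of the 31 windows (12.9%), against 2.62% for the other class II receptors and 13.7% of all windows. The matches of Olfr99 (chr17:37280587-37280616, -) and Olfr108 (chr17:37445362-37445391, +) lay 187 and 107 bases before the annotated start. Those of Olfr93 (chr17:37151934-37151963, -) and Olfr96 (chr17:37225111-37225140, +) lay after it, from bases 19 and 34 of the gene model, and that of Olfr93, whose annotated start is the ATG, is therefore within coding sequence.
Olfr99: tctttatgtctCCCTAGGGagccattttta
Olfr108: tctttatgtctCCCTAGGGagacattttta
Olfr93: accagagcaccCCCGTGGGcttcctcctcc
Olfr96: gaaaactgaatatCCCATGGGaatcctttc
Olfr99 and Olfr108, both of family MOR156, were equal in 29 of 30 bases here, with the single difference C22A counted from the first base shown and with Olfr99 named first. The median log2 difference of knockout minus control was -0.16 in the 4 receptors with TAATTA and -0.16 in the 27 without it. It was -0.26 in the 4 receptors with CCCNNGGG and -0.13 in the 27 without it. These are descriptions of few genes, and no match says only that these letters are not in the window.

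The deposited values were log2 signals per cluster, and each difference given here is knockout minus control on that scale, with its SE after the ± sign (SDs are named as such). Array medians ranged from 8.64 to 8.68 and correlations between arrays from 0.985 to 0.996. Control 2 stood apart on the first principal component, which held 32.5% of the variance, at 32.9 where the other arrays lay between -11.8 and 6.11. Emx2 mRNA lay between 10.14 and 10.34 in knockouts and between 10.58 and 10.89 in controls, a difference of -0.55 ± 0.08 (limma adjusted p = 0.201), and the groups did not overlap. Whether the Emx2 probes lie in the deleted exons was not examined. Omp mRNA, from the locus that carries Cre and so also open to the Cre genotype, was at 12.76, 12.67, 12.91 and 12.60 in knockouts 1 to 4, against 13.43, 12.72, 12.56 and 13.29 in controls 1 to 4. Control 1, labelled as carrying OmpCre, thus read like control 4, which lacks Cre, and both lay above the other 6 mice. Results are therefore also given without controls 1 and 4, an alternative chosen after seeing the data. Nothing in the labels names a litter, so p values rest on the spread between these mice alone.

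Most of the MHC-linked receptors had lower mean signals in the knockouts, by amounts that were mostly within the spread between mice (median SD of a receptor 0.169 in knockouts and 0.20 in controls). Knockout means were the lower ones for 31 of 38 receptors (81.6%), beside 48.6% of all tested clusters and 73.3% of 842 other class II receptors. The median difference was -0.16, against -0.10 for the other class II receptors and 0.0024 for all tested clusters. Differences ranged from -0.41 in Olfr115 (fold 0.751) to 0.13 in Olfr113 (fold 1.09). With limma and adjustment over all 21789 clusters no receptor of the block was called, nor was any other gene (0%), and the smallest adjusted p in the block was 0.527. The methods' t-test called 0 genes as well. Without controls 1 and 4, the controls of high Omp signal, 22 of the 38 receptors were lower, beside 49.1% of all clusters and 50.8% of other class II receptors. The median difference of the block was then -0.03, and no receptor of it was called, while 18 genes were called over the whole array.

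At an unadjusted limma p under 0.05, 5 of the 38 receptors were lower (13.2%) and 0 were higher, against 2.55% of all clusters lower and 2.62% higher. The share of lower genes was near the 12.8% of other class II receptors, of which 0.356% were higher. At a limma p under 0.01, Olfr130 and Olfr115 were lower, or 5.26% of the block, where 0.601% of all clusters and 4.51% of other class II receptors were lower, and 0 of the block were higher (0.61% of all clusters). In 1 receptor (2.63%), Olfr130, all knockouts lay below all controls, a pattern seen in 1.48% of all clusters and 4.51% of other class II receptors. No receptor of the block had all knockouts above all controls, where 1.62% of all clusters and 0.119% of other class II receptors did. The count of 5 at p under 0.05 was 2 by the methods' t-test, and it was 9 without knockout 3, 10 without control 3, 3 without control 1 and 2 without knockout 4 or without control 4. Without both controls 1 and 4 it was 1 (Olfr130), and Olfr113 was then higher at that threshold. With arrays scaled to a list of mature OSN genes it was 1, and 27 receptors were then lower (13.6% of all clusters and 51.1% of other class II receptors were lower under that scaling).

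**Figure D1:**
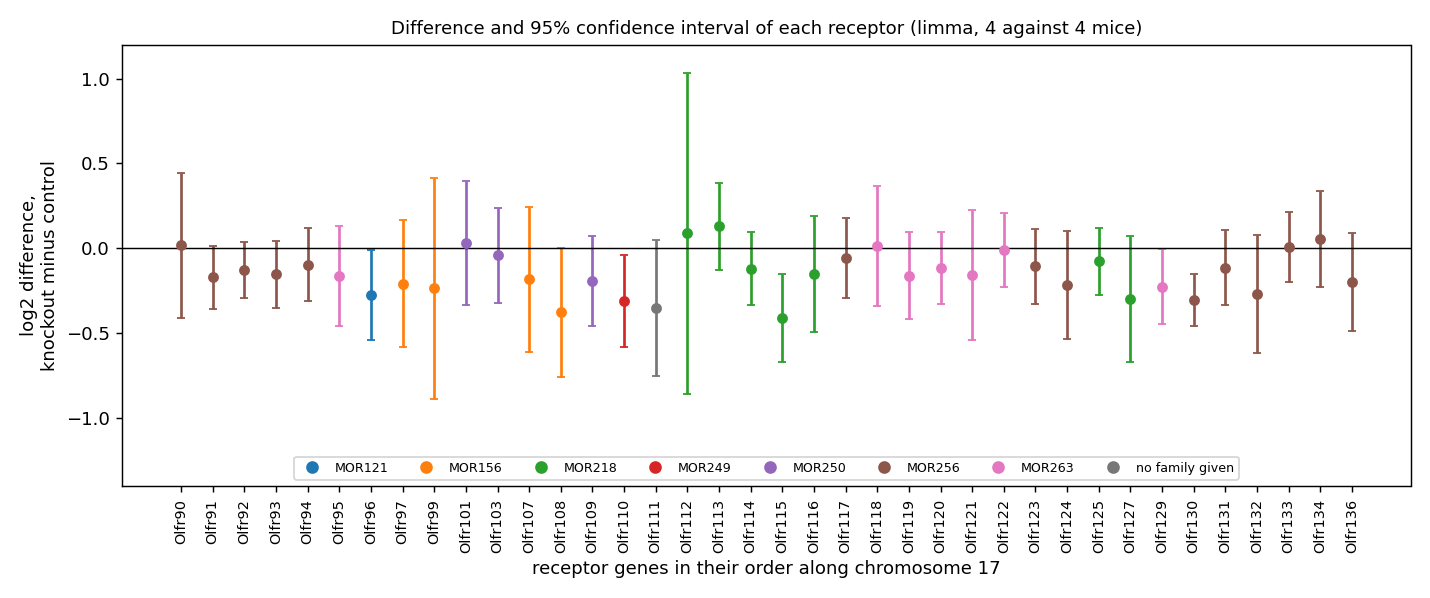
Log2 difference of knockout minus control (y axis) for the 38 receptors in their order along chromosome 17 (x axis), coloured by receptor family, with 95% confidence intervals from limma. 31 points lie below 0, and 5 intervals leave out 0, those of Olfr96, Olfr110, Olfr115, Olfr129 and Olfr130.

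The mean over the 38 receptors in each mouse was 7.85, 8.07, 8.09 and 7.82 in knockouts 1 to 4, against 8.21, 7.99, 7.96 and 8.25 in controls 1 to 4. The groups overlapped, since knockouts 2 and 3 lay above controls 2 and 3. The means were 7.96 ± 0.14 in knockouts and 8.10 ± 0.15 in controls (SD, n = 4 each), so the difference of -0.15 (-9.59%) was about as large as the spread within a group. It was -0.1107 without control 1, -0.0963 without control 4, -0.0197 without both, and -0.0569 with arrays scaled to the mature OSN list.

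The same mice were high and low for class II receptors elsewhere in the genome. Their mean over 842 genes was 7.91, 8.003, 8.15 and 7.85 in knockouts 1 to 4, against 8.17, 8.03, 7.96 and 8.21 in controls 1 to 4, a difference of -0.11 (-7.57%). Within each mouse, the mean of the MHC-linked receptors minus that of the other class II receptors was -0.06, 0.06, -0.07 and -0.03 in the knockouts and 0.03, -0.03, -0.0040 and 0.04 in the controls. The difference of this quantity was -0.03, less than its SD of 0.06 in knockouts and 0.04 in controls. The 114 class I receptors, the smaller and older class, differed by 0.0060, from means of 8.19 ± 0.13 in knockouts and 8.19 ± 0.13 in controls (SD). No test was made of these means.

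**Figure D2:**
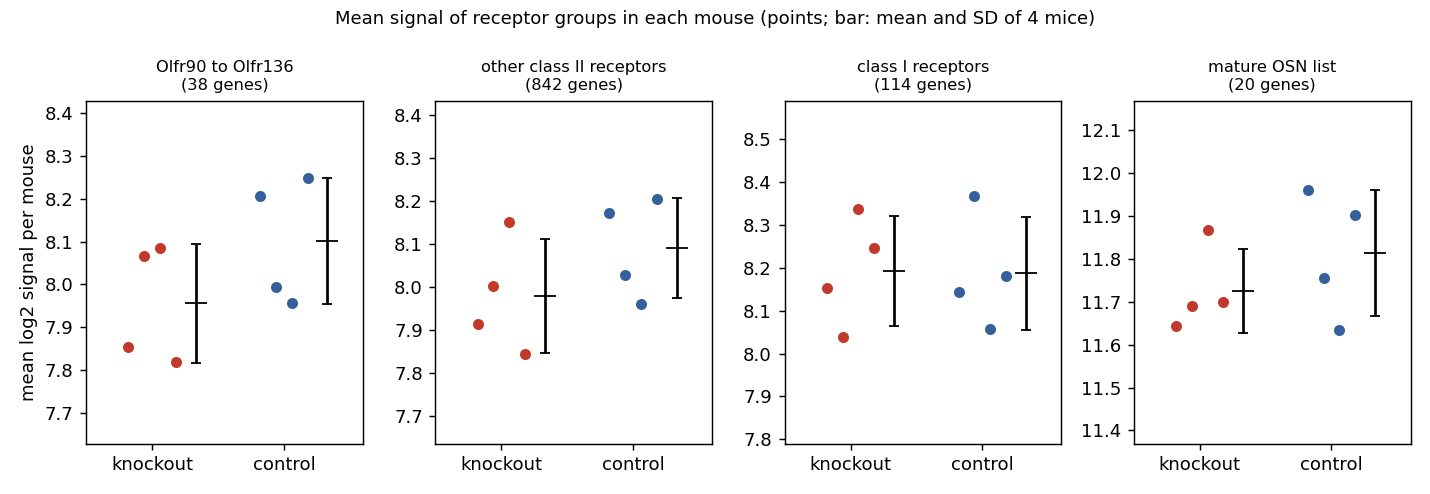
Mean log2 signal in each mouse (points) of the 38 MHC-linked receptors, the other class II receptors, the class I receptors and the mature OSN list, with the mean and SD of 4 knockouts and 4 controls (y axes differ in position but span the same width). The MHC-linked receptors averaged 7.96 in knockouts and 8.10 in controls, and the groups overlap in every panel.

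Other measures also differed between mice, and not all in the order of the receptor means. The mature OSN list (20 of 21 listed genes measured, such as the transduction genes Adcy3, Gnal and Cnga2) lay between 11.64 and 11.87 in knockouts and between 11.63 and 11.96 in controls, well above the array medians, with 16 of 20 genes lower, 3 of them at a limma p under 0.05. The smallest p was that of Kirrel2, an adhesion protein of OSN axons, at -0.33 ± 0.09, and Omp differed by -0.27 ± 0.19, with the spread among controls given above. Controls 1 and 4 were the highest controls, and knockout 3 the highest knockout, in this list. The part of the listed genes in the receptor difference was examined only through the scaling above, and that of these mice by leaving them out. The mean of 3 Y-linked genes was high (10.53 to 10.72) in knockout 3 and controls 2 to 4 and low (7.05 to 8.09) in knockouts 1, 2 and 4 and control 1. Among the mice of high Y-linked signal the receptor mean was 8.09 in the knockout and 8.07 in the 3 controls (difference 0.02). Among those of low signal it was 7.91 in the 3 knockouts and 8.21 in the control (difference -0.29). For the other class II receptors these differences were 0.09 and -0.25. Each such difference, here and below, rests on 1 knockout or on 1 control. The mean of the 6 measured vomeronasal neuron genes in each mouse ranged from 9.24 to 9.69 in knockouts and from 9.30 to 9.68 in controls. The mean of the 7 immune genes ranged from 8.84 to 9.0 in knockouts and from 8.79 to 9.71 in controls, where control 2 held the highest value. All 8 measured genes of globose basal cells, the dividing progenitors of OSNs, had higher means in the knockouts, 1 of them (Kit, 0.17 ± 0.07) at a limma p under 0.05, with list means of 11.03 to 11.21 in knockouts and 10.68 to 11.08 in controls. Likewise 5 of 5 cartilage and bone genes were higher, at 9.96 to 10.41 in knockouts and 9.68 to 10.29 in controls, with 0 at a limma p under 0.05. Of 5 endothelial genes 5 were higher, with list means of 9.25 to 9.86 in knockouts and 9.48 to 9.59 in controls, and of 7 genes of Bowman glands, the mucus glands of the tissue, 6 were lower, with list means of 11.21 to 11.66 in knockouts and 11.26 to 12.10 in controls. None of the genes of those lists reached a limma p under 0.05. Higher and lower genes were 7 and 7 for immature OSNs, 4 and 3 for sustentacular cells and 3 and 3 for respiratory ciliated cells. They were 2 and 3 for horizontal basal cells, 4 and 2 for vomeronasal neurons and 4 and 1 for ensheathing glia. For immune cells they were 2 and 5, for muscle 1 and 4, and for red blood cells 2 and 0. Of all tested clusters 48.6% were lower, 2.55% at a limma p under 0.05, and 2.62% were higher at that threshold. The part of these other cells in the receptor difference was not tested.

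Olfr130, a receptor of family MOR256, had the smallest p of the block. Its log2 signals were 7.96, 8.23, 8.20 and 8.04 in knockouts 1 to 4, against 8.39, 8.47, 8.35 and 8.45 in controls 1 to 4. All 4 knockouts were below all 4 controls, and the control SD of 0.056 was the smallest of the 38 receptors. Its difference was -0.31 ± 0.07 (fold 0.809, limma adjusted p = 0.527). The study had marked Olfr130 on these same arrays, by a p value before correction for multiple testing, so the direction of Olfr130 is not independent evidence. The difference was -0.23 among mice of high Y-linked signal and -0.31 among those of low signal, and -0.22 with scaling to the mature OSN list, where it no longer passed an unadjusted limma p of 0.05. Without controls 1 and 4 it was -0.30.

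Olfr115, a receptor of family MOR218, had the most negative difference. It was at 9.74, 10.004, 9.64 and 9.61 in the knockouts and at 10.32, 10.21, 9.89 and 10.23 in the controls. The groups overlapped only through knockout 2, which lay above control 3. The difference was -0.41 ± 0.11 (fold 0.751, limma adjusted p = 0.739). It was -0.47 among mice of high Y-linked signal and -0.53 among those of low signal, and Olfr115 was the 1 receptor of the block still at a limma p under 0.05 with scaling to the mature OSN list. Without controls 1 and 4 it was -0.30 and no longer passed that threshold.

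Olfr110, the only measured receptor of family MOR249 in the block, was at 8.29, 8.29, 8.09 and 8.05 in the knockouts and at 8.58, 8.49, 8.15 and 8.72 in the controls. Control 3 lay among the knockouts. The difference was -0.31 ± 0.12 (fold 0.808), and it was -0.37 within each set of mice with like Y-linked signal. Without control 3 it was -0.42, and without controls 1 and 4 it was -0.14.

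Olfr96, the only MOR121 receptor of the block, was at 8.98, 9.25, 9.40 and 8.97 in the knockouts and at 9.50, 9.25, 9.33 and 9.61 in the controls. Knockout 3 lay within the control range. Its difference of -0.28 ± 0.12 (fold 0.826) was -0.0030 among mice of high Y-linked signal and -0.43 among those of low signal. Olfr129, of family MOR263, was at 8.13, 8.55, 8.44 and 8.32 in the knockouts and at 8.58, 8.55, 8.47 and 8.75 in the controls. Knockout 2, at 8.555, lay above control 2 (8.546) and control 3 (8.472). Its difference was -0.23 ± 0.10 (fold 0.855). It was -0.15 without knockout 1, -0.15 without controls 1 and 4, and -0.14 with scaling to the mature OSN list, and in none of these did it pass an unadjusted limma p of 0.05. Olfr96 was at -0.14 without controls 1 and 4. Olfr110, Olfr96 and Olfr129 also lost that unadjusted threshold with the scaling, by the methods' t-test, and without knockout 4, control 1 or control 4. The limma adjusted p of Olfr110, Olfr96 and Olfr129 was 0.910 each.

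**Figure D3:**
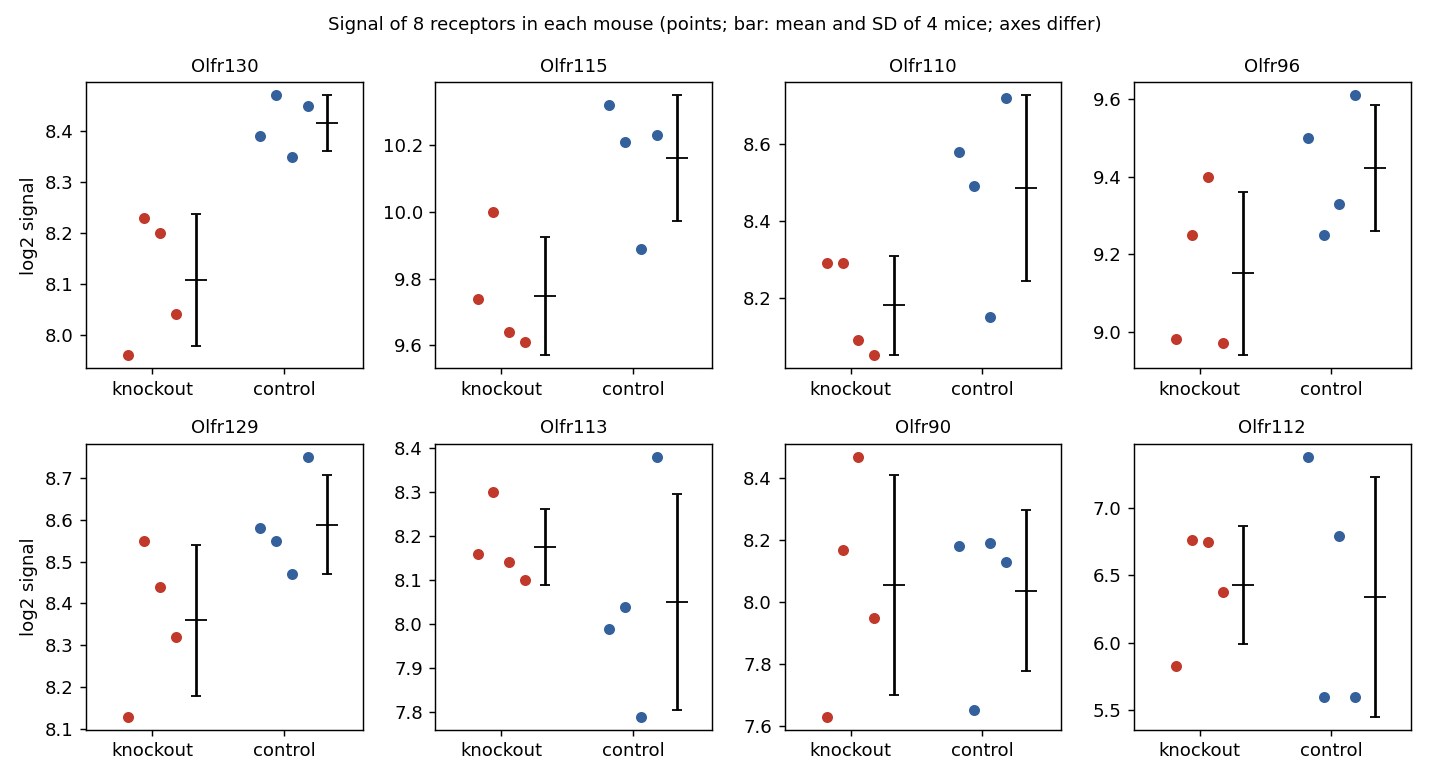
Log2 signal (y axis, differing between panels) of 8 receptors in each knockout and control mouse (points), with the mean and SD of 4 mice. The groups are apart in Olfr130, at 7.96 to 8.23 in knockouts and 8.35 to 8.47 in controls, and overlap in the other 7 panels.

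None of the 7 receptors with a higher mean in the knockouts reached a limma p under 0.05. The smallest p among the higher receptors was that of Olfr113, of family MOR218, at 8.16, 8.30, 8.14 and 8.10 in the knockouts and 7.99, 8.04, 7.79 and 8.38 in the controls. Its difference was 0.13 ± 0.11 (fold 1.09, limma adjusted p = 0.911), and control 4 lay above every knockout. Without control 4 it was 0.24, and it then passed a limma p of 0.05 before adjustment but not after it (adjusted p = 0.949). Without control 3, the lowest control, it was 0.0443. The neighbouring receptors Olfr112 (0.09 ± 0.42) and Olfr114 (-0.12 ± 0.09), of the same family, had other signs or wide errors. Differences were 0.06 ± 0.12 for Olfr134, 0.03 ± 0.16 for Olfr101 and 0.02 ± 0.15 for Olfr118.

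The study also named Olfr90, Olfr91, Olfr99 and Olfr111 within the block. It marked these only in another strain, whose Cre acts from immature OSNs on, and not on the arrays used here. Olfr90 was at 7.63, 8.17, 8.47 and 7.95 in the knockouts and at 8.18, 7.65, 8.19 and 8.13 in the controls. Knockout 1 and control 2 held similarly low signals, and the difference was 0.02 ± 0.19 with a 95% interval of -0.41 to 0.44. Its neighbour Olfr91, also of MOR256, was at 8.83, 8.92, 8.99 and 8.60 in the knockouts and at 9.01, 8.95, 8.97 and 9.09 in the controls. This difference was -0.17 ± 0.08 (limma adjusted p = 0.910). Without knockout 4, the lowest mouse, it was -0.0942. Olfr99, of family MOR156, was at 7.64 in knockout 1 and between 8.37 and 8.90 in the other knockouts, against 8.32 to 9.05 in the controls. The difference was -0.23 ± 0.29, and it was 0.03 without knockout 1.

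Olfr111 was at 8.64, 8.79, 8.50 and 8.24 in the knockouts and at 9.02, 8.93, 8.41 and 9.22 in the controls, where control 3 stood low as it did for its neighbour Olfr110. Its difference was -0.35 ± 0.18 (fold 0.783, limma adjusted p = 0.910), and its control SD of 0.343 was among the 3 highest of the block. Without control 3 the difference was -0.51, and without controls 1 and 4 it was -0.13. Olfr124, named here for its known role and after its values were seen, encodes the broadly tuned receptor SR1 (MOR256-3). It was at 8.10, 7.82, 8.16 and 7.63 in the knockouts and at 8.41, 8.07, 7.90 and 8.19 in the controls, a difference of -0.22 ± 0.14 (limma adjusted p = 0.910).

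Olfr112 varied most between mice. It was at 5.83, 6.76, 6.75 and 6.38 in the knockouts and at 7.38, 5.60, 6.79 and 5.60 in the controls. Its control SD of 0.891 was above the median of 0.20 over the 38 receptors. Controls 2 and 4, both at 5.60, lay below every knockout, while controls 1 and 3 lay above every knockout, control 3 only slightly. Olfr121 (control SD 0.366) was at 7.28, 7.60, 7.55 and 7.56 in the knockouts and 7.77, 7.49, 7.26 and 8.11 in the controls, a difference of -0.16 ± 0.17. It was -0.0064 without control 4, -0.2888 without control 3 and 0.1255 without controls 1 and 4.

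A cluster's signal depends on its probes as well as on its RNA, so signals were compared between mice and not between receptors. Mean signals of the 38 clusters ran from 6.14 to 10.31 with a median of 8.25, and 4 of them were above the median of all tested clusters. The clusters with the 3 highest mean signals were those of Olfr116 (10.31), Olfr115 (9.96) and Olfr96 (9.29). Olfr116, of family MOR218, was at 10.32, 10.37, 10.35 and 9.90 in the knockouts and at 10.53, 10.14, 10.18 and 10.69 in the controls, a difference of -0.15 ± 0.15 that was -0.0390 without knockout 4, -0.0494 without control 4 and 0.0754 without controls 1 and 4. The clusters with the 3 lowest were those of Olfr127 (6.14), Olfr119 (6.18) and Olfr108 (6.21). Their differences were -0.30 ± 0.16, -0.16 ± 0.11 and -0.38 ± 0.17, and none reached a limma p under 0.05. Olfr127 was at -0.1685 without control 3, and Olfr119 at -0.0655 without control 4 and -0.2523 without control 3. At such signals the cluster of Olfr108 gave 5.69 to 6.21 in knockouts and 6.10 to 6.67 in controls.

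By receptor family, the lower share was spread over the block. MOR256, the largest family here and a class II family with broadly responsive members, had 11 of 14 receptors lower with a median difference of -0.12. Its 28 measured receptors elsewhere in the genome had 19 lower with a median of -0.08. By the mean the order was the other way, at -0.12 for MOR256 in the block and -0.16 elsewhere. At a limma p under 0.05, 1 MOR256 receptor was lower in the block and 8 were lower elsewhere. The 3 measured MOR263 receptors elsewhere were all lower, with a median of -0.16. MOR263 had 6 of 7 lower (median -0.16), MOR218 had 5 of 7 lower (median -0.12, from -0.41 in Olfr115 to 0.13 in Olfr113) and MOR250 had 2 of 3 lower (median -0.04). All 4 MOR156 receptors (Olfr97, Olfr99, Olfr107 and Olfr108) were lower, with differences from -0.38 to -0.18 and a median of -0.22. None of these 4 reached a limma p under 0.05. Receptors of 1 family are alike in sequence, and how far their probes read one another's RNA was not tested.

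Along the chromosome, the median difference was -0.16 in the first 19 receptors (Olfr90 to Olfr114), with 15 lower, and -0.15 in the second 19 (Olfr115 to Olfr136), with 16 lower. Once each group's mean was removed, the 38 receptors tended to vary together over the 8 arrays, with a median correlation of 0.519 over 703 pairs. This was 0.544 for the 37 adjacent pairs and 0.518 for all others, and 0.534 within families and 0.518 between them. These correlations are descriptions, since every pair shares the same 8 arrays.

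**Figure D4:**
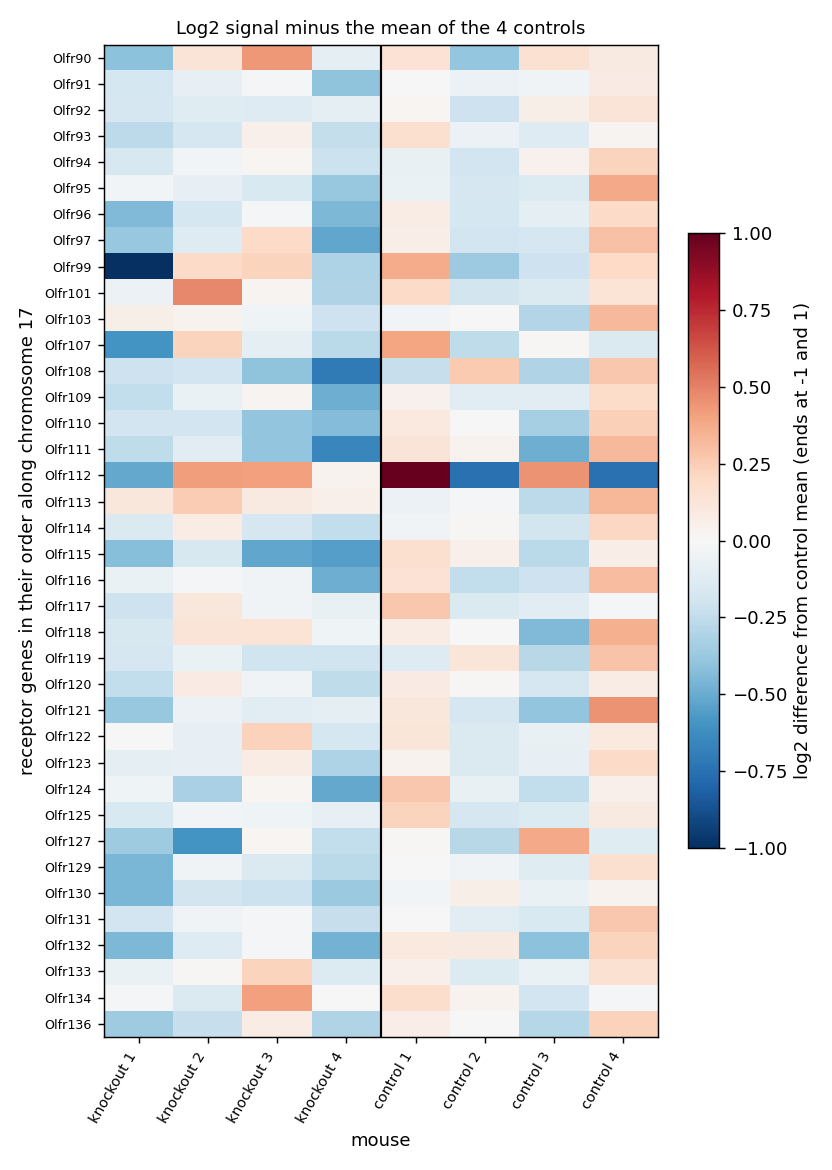
Log2 signal of each of the 38 receptors (rows, in their order along chromosome 17) in each mouse (columns, knockouts left of the line and controls right), minus the mean of the 4 controls. The colour scale ends at -1 and 1, which the lowest value of Olfr99 and the highest of Olfr112 reach, and knockout 4 is mostly blue (lower) and control 4 mostly red (higher).

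The mouse with the lowest knockout signal was knockout 4 in 22 of the 38 receptors and knockout 1 in 13. The highest control signal was that of control 4 in 23 receptors and of control 1 in 12. The lowest control was control 3 in 19 receptors and control 2 in 18.

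Genes that lie among and beside the receptors had a small median difference, with more of them lower than higher. Of 29 listed non-receptor genes of the extended MHC, 26 were measured, with 7 higher and 19 lower, where 48.6% of all tested clusters were lower. Their median difference was -0.03, and 0 were called by limma. At an unadjusted limma p under 0.05, 1 was lower, where 2.55% of all clusters were. That gene was Gabbr1, which encodes a GABA-B receptor subunit and borders Olfr90, at 11.09 to 11.24 in knockouts and 11.20 to 11.37 in controls (-0.13 ± 0.06). Of the genes within the block, H2-M2 differed by -0.14 ± 0.06, H2-M3, which presents formylated peptides, by -0.06 ± 0.07, and Ubd by 0.02 ± 0.06.

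Regulators of OR choice and expression were measured in full, 22 of 22, with 9 higher, 13 lower and 0 called by limma after adjustment. At an unadjusted limma p under 0.05, 4 of the 22 were lower (Ddit3, Rtp2, Atf5 and Emx2, the deleted gene itself) and 1, Cbx5, was higher. Over all clusters 2.55% were lower and 2.62% higher at that threshold. None of the other regulators reached it, among them Rtp1 (-0.0016 ± 0.07), Kdm1a (0.04 ± 0.05) and Ebf1 (-0.02 ± 0.06). Values of these regulators without controls 1 and 4 are not given here. Ddit3 and Atf5 encode transcription factors of the stress response that ORs trigger as they are first made. Their differences were -0.21 ± 0.06 and -0.15 ± 0.06. Rtp2, a chaperone for the transport of ORs to the cell surface, differed by -0.26 ± 0.09, and Cbx5, a heterochromatin protein, by 0.14 ± 0.05. Lhx2 (0.05 ± 0.08) and its partner Ldb1 (-0.0049 ± 0.04), which bind OR enhancers, did not reach a limma p under 0.05. Of these regulators, all but Emx2 and Lhx2 were picked out after their values were seen, and H2-M2, H2-M3 and Ubd were named for their place in the block.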

How the data were processed

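Per the labels and the study's methods, total RNA from 8 olfactory mucosae was hybridised to Affymetrix GeneChip Mouse Gene ST arrays and reduced by the authors with Affymetrix Expression Console, which gave the deposited log2 signal of each transcript cluster. The summarisation algorithm, probe filters and genome build are not given in the sources used here. Values (2.65 to 14.9) were used as deposited. Precision is limited by the number of arrays. The platform annotation supplied gene names, updated by Entrez identifier through RefSeq (GRCm38.p6, 21698 of 21789 clusters found, 0 symbols changed). Receptor families were read from the synonyms in that table.

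Knockouts and controls were compared with limma 3.58.1 (R 4.3.3, lmFit and eBayes, two-sided, Benjamini-Hochberg over 21789 clusters, threshold 0.05). The fit was also tried on simulated arrays. Their noise was drawn independently for each cluster, while the receptors here varied together, so the trial does not bear on counts over correlated receptors. Per-mouse means were described without a test. Alternatives were the methods' t-test, quantile normalization, scaling to a mature OSN list, a Y-linked covariate, array weights, a signal filter, all 35557 rows, the lowest-signal cluster of each gene, leaving out each mouse and, added after seeing the data, leaving out both controls of high Omp signal. Receptors were named by a rule: 6 that the study names, the 5 of smallest p in each direction, the 3 of highest and of lowest signal, and the 3 of largest control SD. Outside the block these were Emx2, Lhx2, Omp and the smallest-p gene of a list. The members, lists and rules were chosen with earlier results of these data known. Clusters shared by several genes were left out.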

Additional observations from a re-analysis of the deposited data

Results flagged for a closer look

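In 3 of 76 groups of 4 mice (38 receptors, knockouts and controls), 1 mouse lay far from the other 3 by Dixon's ratio, where chance gives about 5% of groups. Knockout 4 was at 9.90 in Olfr116, with the other knockouts between 10.32 and 10.37. Knockout 1 was at 7.28 in Olfr121, with the others between 7.55 and 7.60. Control 2 was at 7.65 in Olfr90, with the other controls between 8.13 and 8.19. This control was also the array that stood apart over all genes, and without it the difference of Olfr90 was -0.11.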

How the results depend on the processing

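No paired analysis was possible because the labels give no shared replicate number or litter. The count of called receptors was 0 and the mean and median of the block stayed below 0 in all settings run. The receptors lower at a limma p under 0.05, 5 as reported, were 2 by the methods' t-test, 1 with scaling to the mature OSN list, 3 with the Y-linked covariate, 8 with array weights, 3 over all rows and 2 of the 4 receptors above the median signal, and 2 to 10 on leaving out 1 mouse. Those higher, 0 as reported, were 0 to 1 on leaving out 1 mouse. The receptors without overlap, 1 as reported, were 0 with that scaling or with the signal filter, and 1 to 5 on leaving out 1 mouse. With fewer arrays any gene separates more easily, and the share of all clusters without overlap was not counted there. With the filter, which left 4 receptors, 4 were lower, and the difference from other class II receptors was -0.1702 in place of -0.0319. Genes called over the whole array, 0 as reported, were 4 with the scaling, 5 with array weights, 2 with the filter and 0 to 1 on leaving out 1 mouse.

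Without controls 1 and 4 together, a choice made after seeing the data, the mean difference of the block was -0.0197 and its lower receptors were 22. Those at a limma p under 0.05 were 1 lower and 1 higher, and 18 genes were called over the whole array. The receptors without overlap were 2, again a count that fewer arrays make easier to reach. Olfr99 was then 0.0491, Olfr116 0.0754 and Olfr121 0.1255.

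The mean difference of the block ranged from -0.1936 to -0.0963 on leaving out 1 mouse, its median from -0.1944 to -0.0882, its distance from other class II receptors from -0.0604 to -0.0172, and its lower receptors from 29 to 36. Of 19 named receptors, 11 kept their sign in every setting that held them (the signal filter held 3 of the 19). With array weights Olfr90 was -0.0416, Olfr101 -0.0318 and Olfr118 -0.0361. With the Y-linked covariate Olfr101 was -0.0433 and Olfr112 -0.1015, and with quantile normalization Olfr118 was -0.0024. On leaving out 1 mouse the ranges that crossed 0 were -0.1205 to 0.1592 for Olfr90, -0.3863 to 0.0339 for Olfr99, -0.1162 to 0.1437 for Olfr101, -0.1589 to 0.4349 for Olfr112, -0.1317 to 0.1363 for Olfr118 and -0.0608 to 0.1238 for Olfr134. The cause of these moves was not tested, except that the filter tests fewer genes. With 4 mice a group, differences near the median SE of 0.118 cannot be told from 0.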

Other observations

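Olfr127, of family MOR218, did not share the tendency of the block to vary together. Once each group's mean was removed, its mean correlation with the other receptors over the 8 arrays was -0.163, where the next lowest was 0.077 in Olfr112. The 5 most negative of the 703 pairs all held Olfr127, with Olfr115 at -0.813 the lowest. Its log2 signals were 5.93, 5.69, 6.31 and 6.04 in the knockouts and 6.30, 6.01, 6.67 and 6.17 in the controls, among the lowest of the block. These pairs were singled out after their values were seen and rest on 8 arrays.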
